A study of Mus musculus with 24 samples.

Results

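The cytosolic ribosome of a mammalian cell is built from ribosomal RNA and a fixed set of proteins, each made from its own gene and needed in about equal numbers. The genes described here are these ribosomal protein genes, taken as every gene whose symbol starts with Rpl, Rplp or Rps followed by a digit, without the ribosomal S6 kinases (Rps6k). Only probes that carry exactly 1 gene symbol in the platform annotation were used. In all, 69 of the 6970 genes so measured were members, 45 of the large and 24 of the small subunit. Slide type 1 held 34 of them among 3838 genes (24 large, 10 small, on 52 probes) and slide type 2 held 60 among 4075 genes (38 large, 22 small, on 107 probes), with 25 genes on both. The symbol rule also takes in 3 paralogues (Rpl7l1, Rpl39l and Rps27l) and 1 pseudogene (Rpl17-ps5), which are named where they stand apart.

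Mouse embryos in culture were warmed to 43 °C for 15 min, put back at 37 °C and collected 1 h later, and controls were embryos cultured at 37 °C throughout. The labels give no strain, genotype or stage for either group, and no tissue other than the embryo. Total RNA of heated and control embryos shared each of 24 arrays of 2 channels. There were 3 numbered treatments, each on 2 slide types carrying different probes, and on each slide type the heated RNA was in channel 1 of 2 arrays and in channel 2 of the others. A suffix B, whose meaning is not stated, marks the slide code of 1 array of each such pair. The 4 arrays of a treatment were averaged with equal weight for both channel orders, so that n = 3 treatments throughout. No label states that the treatments came from different litters or cultures. The p-values therefore measure only the spread between these 3, which may be technical, and the small number limits the precision.

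The deposited values are log ratios whose base and numerator are not given, and the median of all probes was subtracted from every array. A value is positive where the ratio was taken as heated over control on the labelled channels, by convention. This side held the heat shock genes Hsph1, with 2.28 ± 0.50 (SD, n = 3, limma adjusted p = 1.1e-05) on slide type 1, and Hspb1, with 2.23 ± 0.05 (SD, n = 3, limma adjusted p = 5.27e-14) on slide type 2. With base 2, 1 unit would stand for 2-fold, and with a natural log for 2.72-fold. A gene is said to be called when limma's moderated test over the 3 treatments gave an adjusted p below 0.05 after Benjamini-Hochberg adjustment over all genes of the slide type.

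The channel order of 1 treatment stood apart. After the sign was turned, arrays of the same treatment but opposite channel order correlated over all genes of slide type 2 at r = −0.677 to −0.636 in treatment 2, against −0.0548 to 0.385 in treatment 1 and −0.174 to 0.0808 in treatment 3. The same range on slide type 1 over the 3 treatments was −0.179 to 0.487. With the heated RNA in channel 1 of slide type 2, arrays of treatments 1 and 2 correlated at r = −0.37 to −0.0225 and those of treatments 2 and 3 at 0.299 to 0.565. With it in channel 2 these ranges were 0.141 to 0.569 and 0.736 to 0.799. These are correlations across genes, which are not independent replicates. Hspb1 was positive on all 12 arrays of slide type 2 (1.8 to 2.8), with 2.74 and 1.82 in treatment 2 where channel 1 or channel 2 held the heated RNA. Both channel orders of treatment 2 thus had the labelled direction for this gene, and values without treatment 2 stand beside the results that depend on it.

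Ribosomal protein mRNAs are among the most abundant in growing cells. Many begin with a cytosine followed by an unbroken run of pyrimidines at the 5′ end, the terminal oligopyrimidine tract, through which the mTOR pathway and the RNA-binding protein Larp1 set their translation together. Heat shock is known to curb translation of most mRNAs and to disturb the nucleolus, where ribosomal subunits are assembled. Some ribosomal proteins, such as those that bind 5S rRNA, also act outside the ribosome when assembly is disturbed.

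The starts of some members, with and without the tract near the annotated start, are shown because the choice of members did not use it. RefSeq promoter entries of build GRCm38.p6 were held for 55 of the 69 members. A C followed by at least 4 bases of C or T, on the transcribed strand, began exactly at the annotated start in 12 of the 55 (21.8%), against 3.01% of all 27025 genes with an entry. It began within 10 bases of the start in 33 of the 55 (60%), against 34.4% of all genes. Each sequence below runs from 40 bases before the annotated start to 20 bases from it, 5′ to 3′ on the strand of the gene, with a tract in capitals. Rps6 lies at chr4:86857348-86857407 on the minus strand, Rps15a at chr7:118116128-118116187 on the minus strand and Rplp2 at chr7:141447611-141447670 on the plus strand. Rpl24 lies at chr16:55966235-55966294 on the plus strand, Rps25 at chr9:44407674-44407733 on the plus strand and Rpl7l1 at chr17:46782637-46782696 on the minus strand. The first 3 carry the tract at the annotated start, and in the last 3 no such tract begins within 10 bases of it. Runs of C and T that begin farther away were left in lower case, such as the long one upstream in Rps25. In the first 3 sequences, C or T directly before the annotated start was also left in lower case. The capitals there count from the C at the start, while the run of C and T itself begins earlier, most so in Rplp2.
Rps6: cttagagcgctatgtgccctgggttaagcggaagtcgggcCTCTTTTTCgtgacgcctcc
Rps15a: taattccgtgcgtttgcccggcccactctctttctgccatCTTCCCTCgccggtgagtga
Rplp2: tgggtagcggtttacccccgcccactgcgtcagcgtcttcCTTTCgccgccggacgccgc
Rpl24: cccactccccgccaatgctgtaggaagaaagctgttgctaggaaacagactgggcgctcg
Rps25: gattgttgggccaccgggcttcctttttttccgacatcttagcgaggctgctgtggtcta
Rpl7l1: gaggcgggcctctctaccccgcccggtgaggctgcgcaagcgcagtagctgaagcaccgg

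Members grouped by a tract at or near the annotated start had similar values. The groups rest on annotated starts, so they need not separate mRNAs with and without a tract. Rps25, with a run of C and T farther upstream, was counted as without it. For slide type 2 the median of the members' means, measured from the median ribosomal protein gene, was 0.00118 in the 10 genes with the tract at the start, 0.0258 in the 17 with it nearby and −0.0082 in the 21 without it in the window. For slide type 1 the same medians were 0.0449 in 3 genes, 0.0204 in 8 and 0.0171 in 14. These are descriptions of the lists, with no test.

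The ribosomal protein genes moved almost as a block, and the position of the block changed from treatment to treatment and from slide type to slide type. The median member of slide type 1 was at 0.00317 in treatment 1, 0.0122 in treatment 2 and 0.268 in treatment 3. The median over all genes was −0.033, −0.0357 and −0.0472 in the same treatments. After centring, treatment 3 thus stood above the other two for the members. Centring on all probes holds the median of all genes near 0, so it cannot show such a shift. Without centring, treatment 3 was the highest for both. The medians in the 3 treatments were then 0.258, 0.0825 and 0.855 for the members and 0.222, 0.0345 and 0.539 for all genes. The median member of slide type 2 was at −0.111 in treatment 1, −0.224 in treatment 2 and −2.57e-05 in treatment 3, with −0.0551, −0.076 and −0.0114 over all genes. Treatment 2 was the lowest of the 3 and treatment 3 the highest.

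Averaged over treatments, the median member was at 0.0946 ± 0.151 (SD, n = 3) on slide type 1 and −0.112 ± 0.112 (SD, n = 3) on slide type 2, so the offset was about the size of its spread over treatments or smaller. Of the members' means, 28 of 34 were above 0 on slide type 1 and 56 of 60 below 0 on slide type 2. Without centring of the arrays, the median of the members' means was 0.407 on slide type 1, where the median of all genes was 0.266, and −0.0354 on slide type 2, where it was 0.0336. Centring therefore moved the median of all genes by more than 0.1 on slide type 1, from 0.266 to −0.0383.

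Nearly every member of slide type 2 followed the order of the treatments, while on slide type 1 only the place of treatment 3 was shared. Treatment 2 gave the lowest of the 3 values in 58 of 60 members of slide type 2 and treatment 3 the highest in 57 of 60. Over all genes of slide type 2 these shares were 58.4% and 46.9%. In 30 of 34 members of slide type 1 treatment 3 gave the highest value, against 36.1% of all genes. The lowest was treatment 1 in 21 members and treatment 2 in 13, against 35.6% and 26.9% of all genes. In the plot of each member by treatment, the symbols of a treatment form a column that shifts as a whole.

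**Figure D1:**
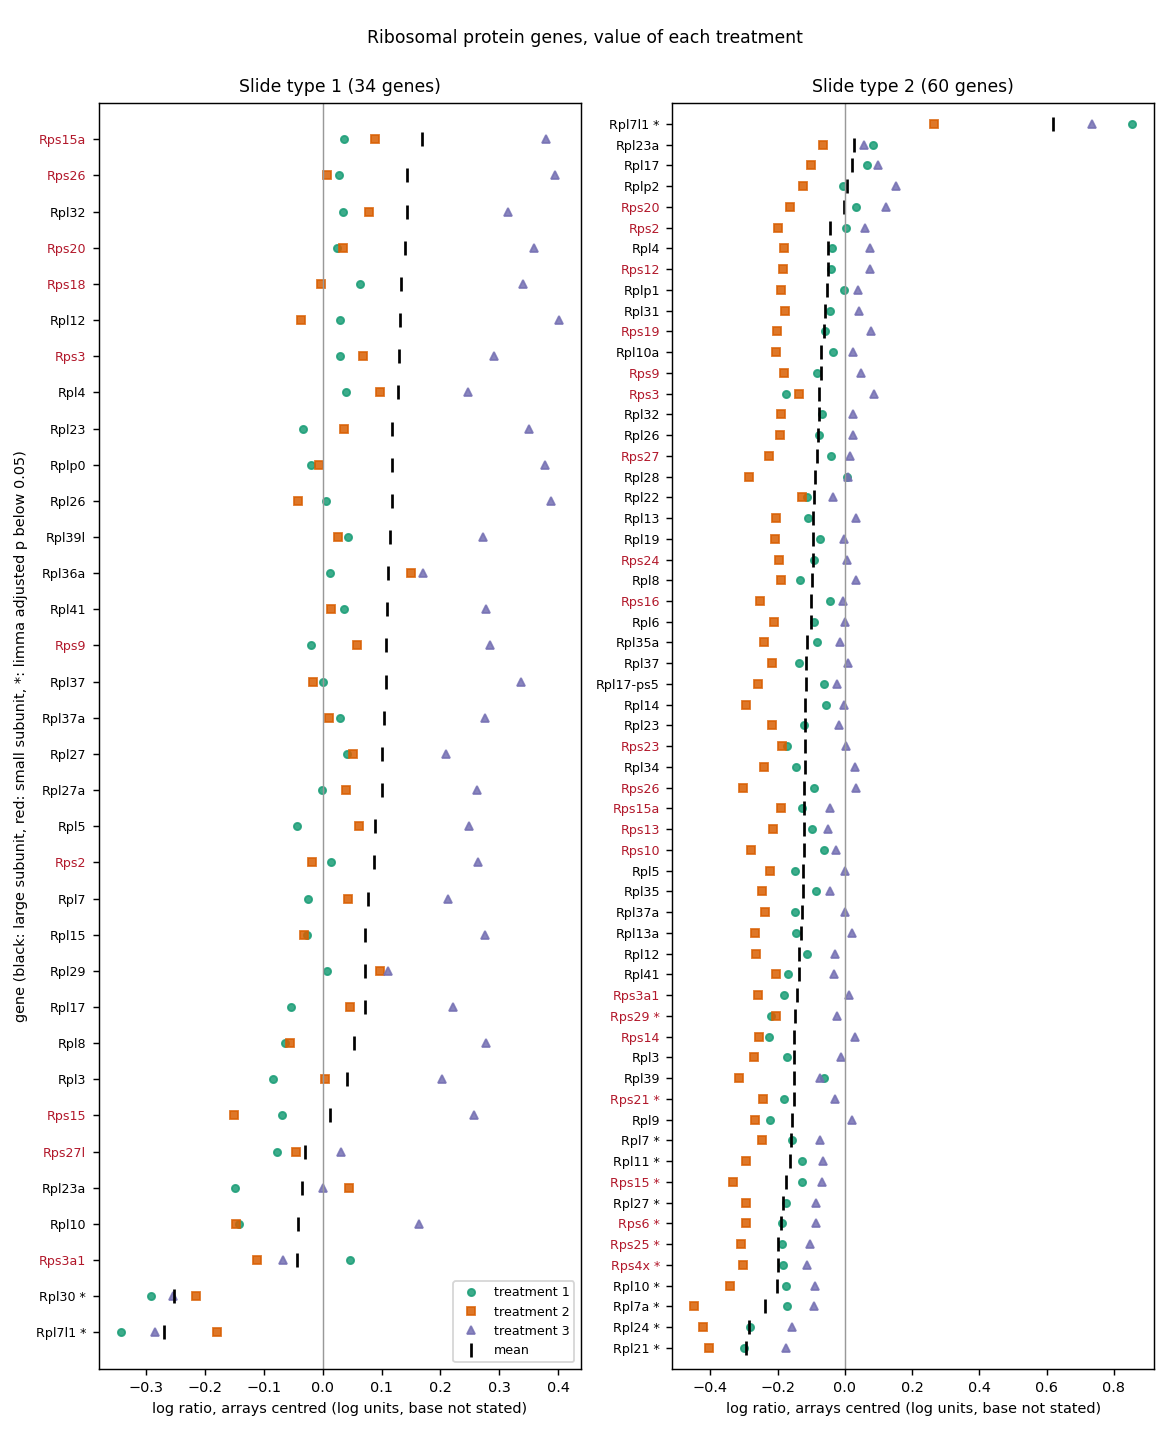
Value of each ribosomal protein gene in the 3 treatments, in log units of unstated base with arrays centred, for slide type 1 (34 genes, left) and slide type 2 (60 genes, right). Symbols are treatments and black bars are means, and stars mark called genes. Treatment 3 is highest in 30 of 34 members on the left, and treatment 2 lowest in 58 of 60 on the right, while Rpl7l1 on slide type 2 lies alone at 0.62.

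The offsets differed between channel orders as much as between treatments. In treatment 2 of slide type 2 the median member was at 0.472 where channel 1 held the heated RNA and at −0.956 where channel 2 did. In that treatment 58 of 60 members were above 0 in the first order and 60 of 60 below 0 in the second. The medians over all genes were 0.025 and −0.189 in these orders, with 48.2% and 58.2% of all genes below 0. For the members of treatment 1 the order was opposite, with −0.372 in channel 1 and 0.134 in channel 2. In treatment 3 their values were −0.00105 and −0.00106. The mean of treatment 2 is thus a small remainder of opposed values. Its members' channel part, taken as (channel 1 − channel 2)/2, had a median of 0.726. Over all genes this median was 0.148, with an SD over genes of 0.551.

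The offset of treatment 3 on slide type 1 came from 1 channel order. The median member there was at 0.0583 where channel 1 held the heated RNA and at 0.467 where channel 2 did. Treatment 1 gave −0.0622 and 0.0441, and treatment 2 gave 0.0909 and −0.0672, with no shared direction. Without treatment 3 the median of the members' means on slide type 1 was 0.00536, against 0.103 with all 3 treatments. The median of slide type 2 was −0.118 with all 3 treatments and −0.0601 without treatment 2. The part of the channels in the offsets was not tested further.

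**Figure D2:**
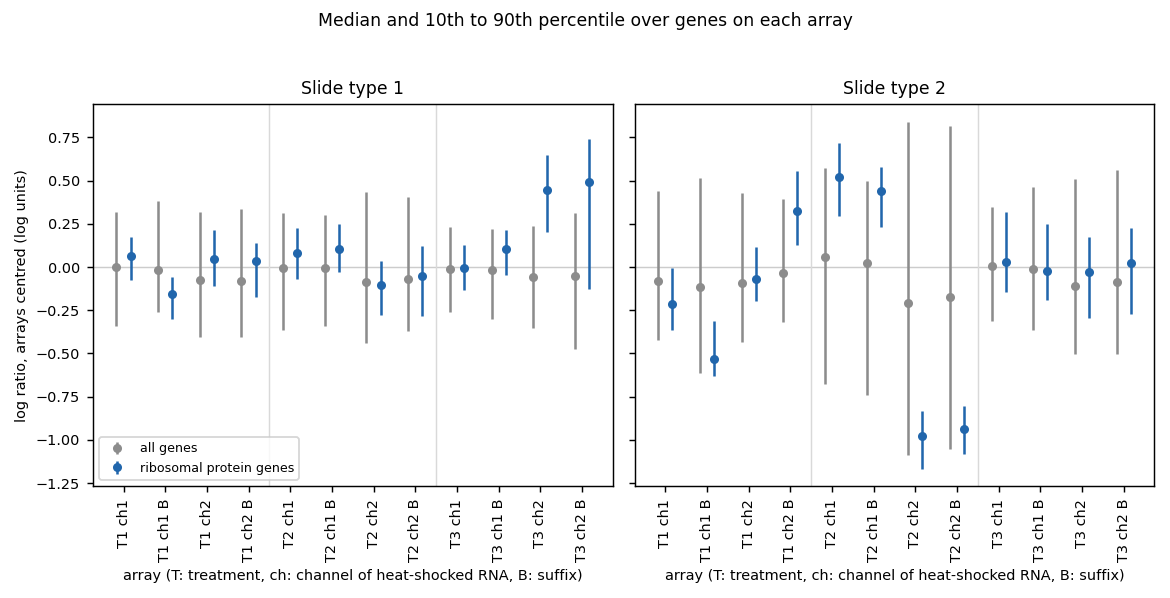
Median (point) and 10th to 90th percentile (line) of the ribosomal protein genes (blue) and of all genes (grey) on each of the 24 arrays, in log units with arrays centred. Labels give the treatment (T), the channel of the heated RNA (ch) and the suffix B. The blue points of treatment 2 on slide type 2 lie on both sides of 0, near 0.472 and −0.956. The grey points stay closer to 0, where centring on all probes holds them.

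Within an array the members lay close together. The SD over members was 0.104 to 0.373 on the 12 arrays of slide type 1 and 0.159 to 0.245 on those of slide type 2. Over all genes it was 0.231 to 0.364 and 0.293 to 0.735, and the members were the narrower set on 11 of 12 and 12 of 12 arrays. Measured from the median ribosomal protein gene of each array, the median SD of a member over treatments went from 0.148 to 0.0491 on slide type 1 and from 0.119 to 0.0321 on slide type 2. The same shift widened the median SD of all genes from 0.09 to 0.166 and from 0.0876 to 0.106. The SD became smaller in 27 of 34 and 59 of 60 members, against 18.4% and 40.4% of all genes. As the zero was set from the members themselves, this describes how alike they were and is no test.

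The medians of the large and small subunits differed by no more than their spread over treatments. For slide type 1 the large minus small difference of the medians was −0.0367 in treatment 1, 0.0178 in treatment 2 and −0.0328 in treatment 3, or −0.0172 ± 0.0304 (SD, n = 3). For slide type 2 it was 0.00108, −0.0105 and −0.0058, or −0.00509 ± 0.00585 (SD, n = 3). Over single arrays it ran from −0.0921 to 0.0603 on slide type 1, above 0 on 4 of 12 arrays, and from −0.0398 to 0.0223 on slide type 2, above 0 on 8 of 12. On slide type 2 the difference was much smaller than the offset the subunits shared. Over genes, the medians of the means were 0.101 for the large and 0.118 for the small subunit on slide type 1, and −0.116 and −0.12 on slide type 2.

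The large subunit held the members farthest from the rest. Its means ran from −0.27 to 0.143 on slide type 1 and from −0.293 to 0.619 on slide type 2. Those of the small subunit ran from −0.0442 to 0.169 and from −0.2 to −0.00175. The outer values on both sides of slide type 2, and the lowest on slide type 1, belong to Rpl7l1, Rpl30, Rpl21 and Rpl24. Of these, Rpl7l1 is a paralogue taken in by the symbol rule, and the probes of Rpl30 disagreed. Without these genes the large subunit means of slide type 1 ran from −0.0421 to 0.143, within the range of the small subunit.

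**Figure D3:**
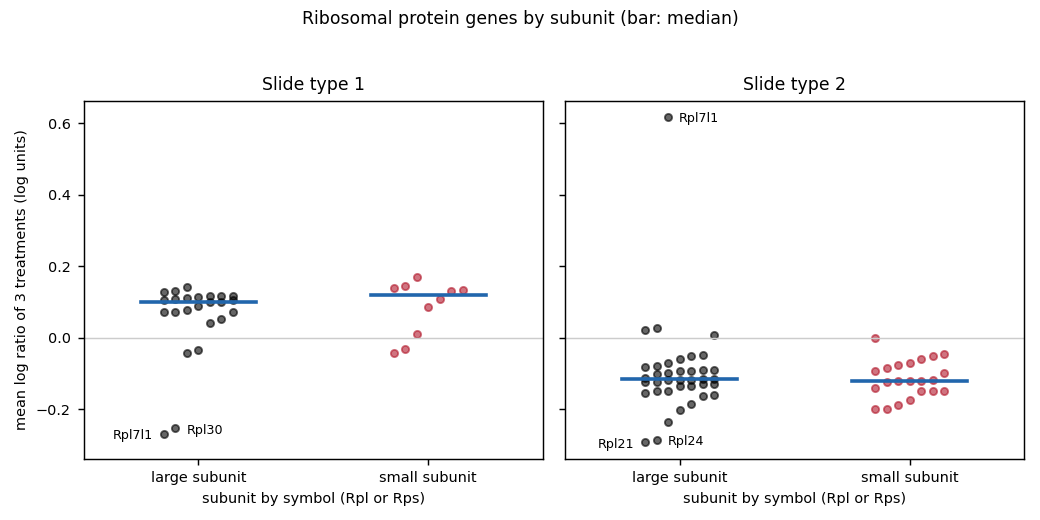
Mean log ratio over 3 treatments of each ribosomal protein gene, in log units with arrays centred, by subunit and slide type, with the median as a bar. The bars of the subunits are at 0.101 and 0.118 on slide type 1 and at −0.116 and −0.12 on slide type 2, and the named genes are the called ones farthest from 0.

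Among the 34 members of slide type 1, 0 were called on the positive side, where 5.73% of all genes were called, and 2 (Rpl7l1 and Rpl30) on the negative side, where 5.65% were. By limma's unadjusted p below 0.05 there was 1 member on the positive side, Rps15a. Of the 60 members of slide type 2, 1 (Rpl7l1) was called on the positive side, against 18.5% of all genes, and 13 (21.7%) on the negative side, against 31.9%. The members' shares were near or below those of all genes in each case. The split of all genes of slide type 2 was 753 positive and 1299 negative. It was 1249 and 861 with arrays centred on the probes of 1 symbol, 76 and 65 without centring, and 211 and 539 with arrays scaled to 1 spread. For slide type 1 it was 220 and 217, and 254 and 119 or 263 and 5 in the first and second of these settings. In whole embryos, fewer cells of a type and less RNA per cell cannot be told apart.

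The 13 called on the negative side of slide type 2 were Rpl7, Rpl7a, Rpl10, Rpl11, Rpl21, Rpl24 and Rpl27 of the large subunit and Rps4x, Rps6, Rps15, Rps21, Rps25 and Rps29 of the small. Their means ran from −0.293 to −0.15. Without treatment 2, limma called 4 members on the negative side, where it called 1226 of all 4075 genes. Without treatment 1 these counts were 6 and 934, and without treatment 3 they were 14 and 1050. With centring on the probes of 1 symbol, 2 members and 861 genes were called on the negative side. Without centring 0 members and 65 genes were called there, and with arrays scaled to 1 spread 0 members and 539 genes. With 1 channel order alone few genes of any kind were called on the negative side, 6 (channel 1) and 11 (channel 2), and 0 of them were members. In these 4 settings without a negative member, 0 to 3 members had an unadjusted limma p below 0.05 on the negative side.

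With each array shifted so that the median ribosomal protein gene was 0, the test asked which members left the block. For slide type 1, 0 members were called on the positive side (2.03% of all genes) and 2, again Rpl7l1 and Rpl30, on the negative side (3.65%). For slide type 2, 1 member, Rpl7l1, was called on the positive side (33.1% of all genes) and 1, Rpl21, on the negative side (11.6%). Of the members, 28 of 34 and 52 of 60 lay within 0.1 units of the block, against 31.7% and 34% of all genes.

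Rpl7l1, a paralogue of Rpl7, gave the largest value of any member. With arrays centred, its sign differed between slide types, while without centring it was positive on both, at 0.702 on slide type 2 and 0.0342 on slide type 1. With 1 probe on slide type 2, it was at 0.855 in treatment 1, 0.265 in treatment 2 and 0.736 in treatment 3, or 0.62 ± 0.31 (SD, n = 3, limma adjusted p = 3.05e-05). All 3 treatments were positive, and treatment 2 was well below the other two. Over the 12 arrays it ran from −0.0768 to 1.08 with a median of 0.687, and the 2 arrays below 0 were both of treatment 2 with the heated RNA in channel 2. From the median ribosomal protein gene it lay at 0.739 ± 0.237 (SD, n = 3, limma adjusted p = 5.93e-08).

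Rpl7l1 on slide type 1 was at −0.344, −0.18 and −0.285 in the 3 treatments, or −0.27 ± 0.08 (SD, n = 3, limma adjusted p = 0.0148). Its 2 probes there gave −0.394 and −0.145, and 11 of 12 arrays were below 0. With the heated RNA in channel 1 the mean was −0.0903, and in channel 2 it was −0.449. The probes of the slide types differ, and with arrays centred the 3 probes of this gene gave values on both sides of 0. Its gap of 0.888 between slide types was the largest of the 25 members on both.

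Rpl30, a large subunit protein, was at −0.291, −0.215 and −0.254 in the 3 treatments of slide type 1, or −0.25 ± 0.04 (SD, n = 3, limma adjusted p = 0.0149), and all 12 centred arrays were below 0. Without centring its mean was 0.0504 (limma adjusted p = 0.772). Its 2 probes disagreed, with −0.605 for one and 0.0985 for the other, which was the widest probe gap of any member. The first probe in the table alone gave 0.0985 with a limma adjusted p of 0.366, so the call rests on the other probe. RefSeq entries for the start of Rpl30 and Rpl21 were not held.

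Rpl21, of the large subunit, was the lowest member of slide type 2 at −0.299, −0.403 and −0.176, or −0.29 ± 0.11 (SD, n = 3, limma adjusted p = 0.00109). Below the block it lay at −0.172 ± 0.007 (SD, n = 3, limma adjusted p = 0.0455), nearly the same distance in each treatment mean. In treatment 3 this mean averaged opposed values, 0.138 where channel 1 held the heated RNA and −0.49 where channel 2 did. The block was at −0.00105 and −0.00106 in these orders, and Rpl21 lay below it on 10 of 12 arrays. Its channel orders gave −0.0293 where channel 1 held the heated RNA and −0.557 where channel 2 did.

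Rpl24, which takes part in a bridge between the subunits, was at −0.282, −0.421 and −0.156, or −0.29 ± 0.13 (SD, n = 3, limma adjusted p = 0.00154), on its 1 probe of slide type 2. It lay below the median ribosomal protein gene on 12 of 12 arrays, by −0.166 on average, with a limma adjusted p of 0.0542. Both channel orders were on the negative side, with −0.216 and −0.357. Rps25, Rps4x and Rps6 were likewise below the block on all 12 arrays, by −0.0792, −0.0797 and −0.0692, with limma adjusted p = 0.373, 0.37 and 0.442. Rps20 was above it on all 12, by 0.119 (limma adjusted p = 0.169). These 4 of the small subunit are named for lying on 1 side of the block on every array, and none was called against it.

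Rps6 is the ribosomal protein phosphorylated by the S6 kinases downstream of mTOR. Its values on slide type 2 were −0.188, −0.295 and −0.086, or −0.19 ± 0.10 (SD, n = 3, limma adjusted p = 0.0157), with its 3 probes between −0.209 and −0.178. Rps4x, the X-linked small subunit protein, was at −0.185, −0.303 and −0.113, or −0.20 ± 0.10 (SD, n = 3, limma adjusted p = 0.011). Rps25, known for its part in initiation on some viral mRNAs, was at −0.186, −0.31 and −0.103, or −0.20 ± 0.10 (SD, n = 3, limma adjusted p = 0.0117). All 3 genes had a negative mean in each treatment, in the order of the block. In treatments 1 and 2 these means averaged opposed channel orders. For Rps6 they were −0.465 (channel 1) and 0.0897 (channel 2) in treatment 1, and 0.452 and −1.04 in treatment 2. Over treatments, Rps6, Rps4x and Rps25 were at −0.0155, −0.0574 and −0.0266 in channel 1 and at −0.364, −0.343 and −0.373 in channel 2. Their calls were kept in 7, 9 and 9 of the 17 other settings that tested against 0.

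Rpl5 and Rpl11 carry 5S rRNA into the large subunit and are known to bind Mdm2 when ribosome assembly is disturbed. Rpl11, on slide type 2, was at −0.127, −0.293 and −0.0659, or −0.16 ± 0.12 (SD, n = 3, limma adjusted p = 0.0359). Its call was kept in 2 of the 17 other settings that tested against 0, and not with a replicate block on treatment. Rpl5 was at −0.148, −0.223 and 0.000343 on slide type 2, or −0.12 ± 0.11 (SD, n = 3, limma adjusted p = 0.0964), and at 0.09 ± 0.15 (SD, n = 3) over 4 probes on slide type 1. Measured from the block, Rpl5 lay at −0.003 on slide type 2, so it moved with the other members.

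The stalk proteins, which recruit the translation factors, were not called. Rplp0 was at −0.0203, −0.00562 and 0.378 on slide type 1, or 0.12 ± 0.23 (SD, n = 3, limma adjusted p = 0.419), with only treatment 3 away from 0. Rplp1 on slide type 2 was at −0.00341, −0.191 and 0.0394 and Rplp2 at −0.0048, −0.125 and 0.154. Rplp2 had one of the widest channel gaps, at 0.435 where channel 1 held the heated RNA and −0.42 where channel 2 did. The widest belonged to Rps3, a protein at the mRNA entry of the small subunit, with 0.359 and −0.51 in the same orders.

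The list drawn up for the exit of the peptide tunnel had 5 genes for slide type 1, and 0 of them were called. For slide type 2 it had 10, and only Rpl24 was called. As Rpl24 is named above for a bridge between the subunits, its call says nothing about the tunnel exit. The place of each other listed protein was not checked. The medians of the list, with Rpl24 kept in it, were 0.072 for slide type 1 and −0.0859 for slide type 2. Rpl23a and Rpl17 stood at the upper end of slide type 2, with 0.03 ± 0.08 and 0.02 ± 0.11 (SD, n = 3), where their probes ranged from −0.129 to 0.181 and from −0.092 to 0.214. Rpl4, on 5 probes, was at −0.05 ± 0.13 (SD, n = 3).

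The remaining called members of slide type 2 were spread over the subunits. Rpl7a was at −0.173, −0.448 and −0.0908 (mean −0.24, limma adjusted p = 0.00881), and Rpl10, which joins the large subunit late in assembly, at −0.174, −0.342 and −0.0897 (mean −0.20, limma adjusted p = 0.0131). Rpl27 had −0.176, −0.294 and −0.0846, Rpl7 had −0.159, −0.246 and −0.0735, and Rps15 had −0.126, −0.332 and −0.0691. In Rps21 the values were −0.181, −0.242 and −0.0282, and in Rps29 they were −0.22, −0.206 and −0.0232. The limma adjusted p of these 5 ran from 0.018 to 0.0481. In the fit of single arrays with a replicate block on treatment, Rpl7, Rps15, Rps21 and Rps29 were not called, while Rpl27 was. Treatment 2 was the lowest in each but Rps29, where treatment 1 was.

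At the upper end of slide type 1 were Rps15a, Rps26, Rpl32 and Rps20. Rps15a was at 0.0369, 0.0895 and 0.38, or 0.17 ± 0.18 (SD, n = 3, limma adjusted p = 0.185). It lay above the median ribosomal protein gene on all 12 arrays. Rps26 was at 0.0275, 0.00801 and 0.395, Rpl32 at 0.035, 0.079 and 0.315, and Rps20 at 0.0234, 0.0343 and 0.359. In all 4 the mean was carried by treatment 3. Toward the lower end, besides the called pair, Rps3a1 was at −0.04 ± 0.08 and Rpl10 at −0.04 ± 0.18 (SD, n = 3).

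Of the other paralogues and the pseudogene, Rpl39l and Rpl17-ps5 stayed near the block. Rps27l lay at −0.119 from it, was below it on 11 of 12 arrays and was not called against it. Rpl39l, a paralogue of Rpl39, was at 0.11 ± 0.14 (SD, n = 3) and Rps27l, a paralogue of Rps27 known as a p53 target, at −0.03 ± 0.06 (SD, n = 3) on slide type 1. Rpl17-ps5 was at −0.11 ± 0.13 (SD, n = 3) on slide type 2. Ribosomal protein genes have many processed pseudogenes of near-identical sequence, and a probe's signal may hold RNA of several copies. Leaving out the paralogues and the pseudogene kept both medians within the spread between treatments.

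With arrays centred, most of the 25 members on both slide types did not keep their sign. Of these, 22 had means of opposite sign, and 20 of the 22 were positive on slide type 1 and negative on slide type 2. The median gap, slide type 2 minus slide type 1, was −0.198, with a range from −0.289 for Rps15a to 0.888 for Rpl7l1. Over all 943 genes on both slide types, 39% had opposite signs and the median gap was −0.0578. The 20 were Rpl3, Rpl4, Rpl5, Rpl7, Rpl8, Rpl12, Rpl23, Rpl26, Rpl27, Rpl32, Rpl37, Rpl37a, Rpl41, Rps2, Rps3, Rps9, Rps15, Rps15a, Rps20 and Rps26. The other two, Rpl7l1 and Rpl23a, ran the opposite way. Rpl10 and Rps3a1 were negative on both, and Rpl17 was positive on both. Measured from the block, 11 of the 25 had opposite signs. The slide types carry different probes and were deposited as separate tables, so these values stand side by side without a test.

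**Figure D4:**
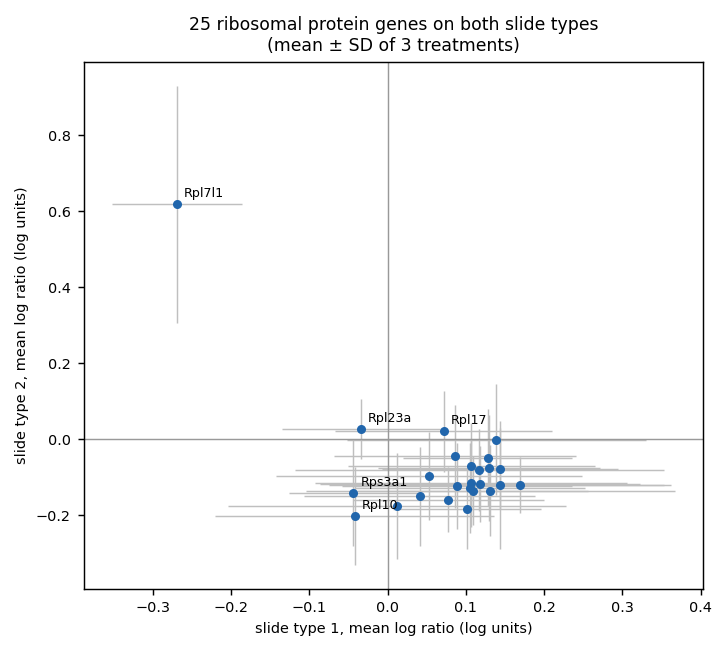
Mean log ratio of the 25 ribosomal protein genes measured on both slide types, slide type 1 on the horizontal and slide type 2 on the vertical axis, in log units with arrays centred. Lines are the SD of 3 treatments. Most points lie right of and below 0 (20 of 25), and Rpl7l1 lies opposite them at −0.27 and 0.62.

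Other genes of the pathway came from lists of the translation machinery. Of non-ribosomal genes known to carry the pyrimidine tract, such as translation factors, 0 of 13 were called on slide type 1 (median −0.000501) and 4 of 15, all negative, on slide type 2 (median −0.0571), where 31.9% of all genes were called negative. By limma, Hnrnpa1, an RNA-binding protein, was at −0.29 ± 0.14 (adjusted p = 0.0017), the initiation factor Eif4b at −0.27 ± 0.10 (adjusted p = 0.00176) and the elongation factor Eef1a1 at −0.18 ± 0.11 (adjusted p = 0.0249) on slide type 2 (SD, n = 3). The treatment medians of this list on slide type 2 were −0.0444, −0.187 and 0.0367, in the same order as the ribosomal protein genes. All genes (−0.0551, −0.076 and −0.0114) and the ribosome biogenesis and mitochondrial ribosome lists had this order as well. For slide type 1 the medians of the list were −0.107, −0.0887 and 0.17. Treatment 3 was again the highest, as it was in the other 2 lists.

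Of the genes of ribosome biogenesis, 2 of 47 were called positive and 5 negative on slide type 1 (median −0.0507), and 1 of 28 positive and 14 negative on slide type 2 (median −0.139). Over all genes the shares were 5.73% positive and 5.65% negative on slide type 1 and 18.5% and 31.9% on slide type 2, with medians of −0.0383 and −0.0493. Gnl3, the nucleolar GTPase nucleostemin, was called on both, at −0.39 ± 0.17 and −0.61 ± 0.17 (SD, n = 3, limma adjusted p = 0.00584 and 2.43e-06). It held its sign on both slide types, unlike most ribosomal protein genes. Wdr75, a factor of the small subunit processome, was at 0.59 ± 0.18 (SD, n = 3, limma adjusted p = 0.000587) on slide type 1. Ubtf, which activates ribosomal RNA transcription, was at −0.37 ± 0.11 (SD, n = 3, limma adjusted p = 0.000163) on slide type 2.

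Proteins of the mitochondrial ribosome form a separate machine, and their genes were more spread. For slide type 1, 2 of 29 were called positive and 2 negative (median −0.0534), against 5.73% and 5.65% of all genes. On slide type 2, 3 of 21 were called positive and 9 negative (median −0.131), against 18.5% and 31.9% of all genes. By limma, Mrpl11 was at 0.73 ± 0.08 (adjusted p = 7.94e-08) and Mrpl18 at −0.55 ± 0.04 (adjusted p = 1.52e-06) on slide type 2, and Mrpl9 at 0.64 ± 0.11 (adjusted p = 0.000132) on slide type 1 (SD, n = 3). Their treatment medians on slide type 2, −0.124, −0.127 and −0.119, were nearly equal, whereas those of the cytosolic ribosomal protein genes were −0.111, −0.224 and −2.57e-05.

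Markers of embryonic tissues were sparse. Of the erythroid markers, 0 of 1 and 0 of 4 were called on slide types 1 and 2, with means from −0.135 to 0.0882 on slide type 2, and of yolk sac endoderm markers 0 of 4 were called on slide type 1, between −0.0666 and 0.0386. Of neural markers 1 of 2 was called on slide type 1, Tubb3 at −0.21 ± 0.04 (SD, n = 3, limma adjusted p = 0.0359). The other, Nes, was at −0.108 ± 0.046 (SD, n = 3, limma adjusted p = 0.269). Of all genes, 5.73% were called positive and 5.65% negative on slide type 1, and 18.5% and 31.9% on slide type 2. Heart muscle markers had 0 genes on probes of 1 symbol. The part of tissue makeup in the offsets of the ribosomal protein genes was not tested.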

How the data were processed

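The authors deposited log ratios for 24 arrays, 1 table of 7680 probes and 12 arrays for each of 2 slide types. These score values are log ratios made by the authors, per the labels an array's heated against control RNA. How they were normalized, the base of the log and the numerator were not given in the sources used here. No value was missing. Arrays with heated RNA in channel 2, per the labels' source names, had their sign turned, and the median of all probes was subtracted from each array. A gene is the mean of its probes with 1 symbol, and a treatment the mean of 4 arrays. An intercept was tested with limma 3.58.1 in R 4.3.3 (lmFit and eBayes) over all genes of a slide type, with Benjamini-Hochberg adjustment at 0.05, and the script was tested on simulated data. Spot intensities were not used here.

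The rule for named members took those called, the 4 highest and 4 lowest means of a slide type, members on both slide types, members with probes over 0.5 units apart, and the 5S rRNA-binding, stalk, S6 and paralogue genes. From each pathway list up to 3 genes of smallest p could be named. Members, lists and rules were chosen with earlier results of these data known. Lists of the ubiquitin fusion protein and of heart muscle markers had no gene measured. Other settings tried were 3 other ways of centring, scaling, 2 other ways to join probes, 1 channel order, 1 kind of suffix, a replicate block, a robust prior, treat against 0.58 units and leaving out each treatment. Turning the sign of treatment 2 arrays on slide type 2 was added after the data were seen. Sequences are from RefSeq (GRCm38.p6), matched by symbol. Figures were drawn with matplotlib 3.10.9.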

Additional observations from a re-analysis of the deposited data

How the results depend on the processing

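The SD between treatments is about as large as the offsets of the ribosomal protein genes, and 3 treatments limit the precision. As limma shares an estimate of spread over genes, a member could be called with a mean little above its own SD. Rps15 on slide type 2, for instance, was called at −0.176 with an SD of 0.139. On slide type 1 the 2 negative calls became 0 without centring, with the first probe of a gene, with heated RNA in channel 1 only, with suffixed arrays only and against 0.58 units (treat), where 0 to 2 members had an unadjusted limma p below 0.05, and 0 to 2 calls were made when a treatment was left out. Over all 3838 genes of slide type 1, 217 were called negative with the settings used above. In the other settings just named, in that order, 5, 189, 431, 75 and 1 were. Leaving out treatment 1, 2 or 3 gave 53, 138 and 245. The members' median was 0.407 without centring and 0.00536 to 0.148 without a treatment. Large minus small was −0.0757 with heated RNA in channel 1 only. Signs turned without centring for Rpl10 (0.262), Rpl30 (0.0504) and Rpl7l1 (0.0342), with centring on probes of 1 symbol for Rpl10 (0.000551), with centring on the ribosomal protein genes for Rpl7 (−0.0113) and Rps15 (−0.0769), with the first probe for Rpl30 (0.0985), in channel 1 only for Rps15 (−0.128), in channel 2 only for Rpl10 (0.0112), and when a treatment was left out for Rpl10 (−0.145 to 0.0106) and Rps15 (−0.111 to 0.0931). On slide type 2 the 13 negative calls became 0 without centring, with arrays scaled to 1 spread, in either channel order alone and against 0.58 units, 1 and 2 with centring on the ribosomal protein genes and on probes of 1 symbol, 8 with either kind of suffix, and 4 to 14 when a treatment was left out. Over all 4075 genes the negative calls went from 1299 to 474 with centring on the ribosomal protein genes and to 861 on probes of 1 symbol. Arrays without the suffix gave 1169. The fit of 12 arrays with a replicate block on treatment called 8 negative and 1 positive member on slide type 2. On slide type 1 it called 2 and 0 members, and 473 and 289 of all genes. The positive call of Rpl7l1 became 0 in either channel order alone and against 0.58 units, and was made in 13 of the 17 settings that tested against 0. Its mean was 0.71 with heated RNA in channel 1 only and 0.528 with it in channel 2 only, against 0.619 with both. The median was 0.0251 with heated RNA in channel 1 only and −0.305 with it in channel 2 only, and large minus small, 0.00389 over the means, was −0.0155 in channel 1 only and between −0.00279 and −0.000506 when a treatment was left out. In channel 1 only, Rpl27 (0.0851), Rpl7 (0.0551) and Rps29 (0.108) turned sign. Turning the sign of treatment 2 arrays on slide type 2 left 0 of all 4075 genes called, so its lost calls say nothing about the members. Hspb1 was positive on all 12 arrays as labelled. The source of the channel part in treatment 2 was not tested. Turning the treatment 2 arrays of channel 1 gave 0 positive and 0 negative calls, a median of −0.287 and large minus small of 0.0207. Turning those of channel 2 gave 0 and 0 calls and a median of 0.198, with means of 0.17 for Rpl10, 0.153 for Rpl11, 0.0852 for Rpl21, 0.0604 for Rpl24, 0.168 for Rpl27, 0.18 for Rpl7, 0.141 for Rpl7a, 0.162 for Rps15, 0.165 for Rps21, 0.134 for Rps25, 0.163 for Rps29, 0.143 for Rps4x and 0.158 for Rps6. With scaling, suffixes or a block, the cause of lost calls was not tested.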

Other observations

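Probes that carry a ribosomal protein symbol beside another symbol were not used above. On slide type 1, 10 such probes had a median of 0.115 and a range from 0.0961 to 0.373, and on slide type 2, 24 had a median of −0.134 and a range from −0.219 to 0.105. The highest, shared by Rpl3 and Syngr1 on slide type 1, was at 0.308, 0.374 and 0.436 in the 3 treatments, above the 1-symbol probe of Rpl3 at 0.04 ± 0.15 (SD, n = 3). On slide type 2 such probes reached genes with no probe of their own. The probe of Rpl36 and a pseudogene was at −0.122, −0.244 and 0.0795, and that of Rps7 and a pseudogene at −0.118, −0.234 and −0.0362. The probe of Rpl22l1, a paralogue of Rpl22, and Gm15421 was at −0.0221, −0.266 and −0.0949. In these 3, treatment 2 was the lowest. In all 3 probes that carry the pseudogene Rpl17-ps2 beside Flrt2 and Map4k5, it was not: they were at −0.292, −0.287 and −0.00782, at −0.405, 0.0237 and −0.0932, and at 0.058, 0.0795 and 0.177.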
